A study of Mus musculus with 10 samples.

Results

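Acetylation of lysine 27 on histone H3 (H3K27Ac) marks active promoters and enhancers, and in liver it covers the regulatory sites of genes that hepatocytes use. Dimethylation of lysine 4 (H3K4me2) marks promoters and enhancers more broadly, including sites that are open but not strongly active. Chromatin of formalin-fixed, paraffin-embedded (FFPE) tissue is heavily crosslinked, so the time of sonication bears on how much of it is brought into solution and how finely it is broken. FiTAc-seq is a chromatin immunoprecipitation protocol for such tissue, in which sections are heated overnight in 1% SDS buffer and then sonicated.

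The peaks described here are H3K27Ac peaks of normal mouse liver that were listed after 40 min of sonication and not after 5 min. A peak of the FiTAc-seq library made at 65 °C with 40 min was taken when it lay on chromosomes 1 to 19, overlapped a peak of the 50 °C, 40 min library, and overlapped no peak in the 3 lists of 5 min. An overlap of 1 bp was enough. Of 63188 peaks of the 65 °C, 40 min list on these chromosomes, 4028 met the rule, or 6.37%. They were 8.07% of the 49920 peaks that the list shared with the 50 °C, 40 min list. The 4028 were selected on their overlap with the other 4 FiTAc-seq lists, so their presence and absence there is a description. The fresh frozen H3K27Ac list and the FFPE H3K4me2 list were not used and carry the comparisons.

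All groups were normal mouse liver, taken as full sections, and no strain, sex or age was given in the sources used here. The FFPE groups used for the rule were heated at 50 °C with 5 min, 50 °C with 40 min, 65 °C with 5 min (2 libraries) and 65 °C with 40 min of sonication. The fresh frozen group was crosslinked, lysed and sonicated, and the H3K4me2 group was FFPE liver homogenized by proteinase K treatment and sonication (FiT-seq). Every group other than 65 °C with 5 min was 1 library, and whether libraries came from separate animals was not stated. A peak list without reads cannot show a low signal that missed the calling threshold. "Only after 40 min" therefore means listed only there. Sequencing depth was unknown for all libraries. On chromosomes 1 to 19 the lists of 5 min held 38099 peaks (50 °C), 59431 and 55848 (65 °C), and those of 40 min 64465 (50 °C) and 63188 (65 °C). The 40 min lists had gaps between peaks as small as 36 bp and the 5 min lists none under 76 bp. Peak calling and sonication time cannot be told apart in what follows.

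The 4028 peaks were short and low. Their median width was 208 bp, with 1859 of them (46.2%) under 200 bp and 8 of 1000 bp or more. The smallest width in any FiTAc-seq list is 146 bp, which was also the 5th percentile of these peaks. The value deposited with each peak, taken to be a q-value on the −log10 scale, had a median of 5.73 in the 65 °C, 40 min list. Peaks of that list that met both a 50 °C, 40 min peak and a 5 min peak, 45892 in all, had median widths of 430 bp and median −log10 q-values of 10.7. A −log10 q-value of 10 or more was reached by 350 of the 4028 peaks (8.69%), where 40.2% of all 65 °C, 40 min peaks reached it. Their median rank in the 65 °C, 40 min list was 43734, and 2 were among its 5000 highest. The lists used by the rule set these differences in size, and they are given without a test.

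By the rule each peak overlapped a 50 °C, 40 min peak by at least 1 bp. The extent of that overlap is a description, given for these peaks only. A median of 74.0% of the peak was covered by peaks of the 50 °C, 40 min list, and 76% of the peaks were covered over 50% or more of their width. The 50 °C peaks involved numbered 4043, with a median width of 254 bp. Of these, 767 (19%) did overlap a 5 min peak themselves, because they reached further than their 65 °C partner. The order of the −log10 q-values was shared only weakly, with a Spearman correlation across the 4028 peaks of 0.20, against 0.70 across the 45892 that also met a 5 min peak. The narrower range of values among the former enters that comparison, and peaks are not replicates.

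Fresh frozen liver had an H3K27Ac peak at 1272 of the 4028 peaks, or 31.6% (Wilson 95% interval 30.2 to 33.0), where 49.5% of all 65 °C, 40 min peaks met one. Peaks of both 40 min lists that also met a 5 min peak did so in 59.8% (59.3 to 60.2). The difference was -28.2 percentage points (Newcombe 95% interval -29.7 to -26.7), and the share was lower on 19 of 19 chromosomes. These intervals cover counting error only, since neighbouring peaks are not independent. Across chromosomes the share ranged from 22.3% to 37.7%, with a median of 32.6%.

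The difference was smaller among narrow, low peaks. Of the peaks under 200 bp, 26.3% (24.4 to 28.4) of those seen only after 40 min met a fresh frozen peak, against 29.6% (28.5 to 30.7) of those with a 5 min peak. At widths from 200 to under 300 bp the shares were 32.1% (29.6 to 34.7) and 39.1% (38.1 to 40.2), and from 500 to under 1000 bp 57.7% (49.1 to 65.8) and 74.2% (73.4 to 75). At −log10 q-values from 3 to under 5, the shares of 25.6% (23.5 to 27.9) and 28.0% (26.9 to 29.2) had overlapping intervals. At 10 or more they were 52.0% (46.8 to 57.2) and 79.9% (79.4 to 80.4). With the comparison set weighted to the same classes of width and −log10 q-value, its share was 35.8% and the difference was -4.20 points. The gap was thus narrow among small, low peaks and wide among large, high ones.

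**Figure D1:**
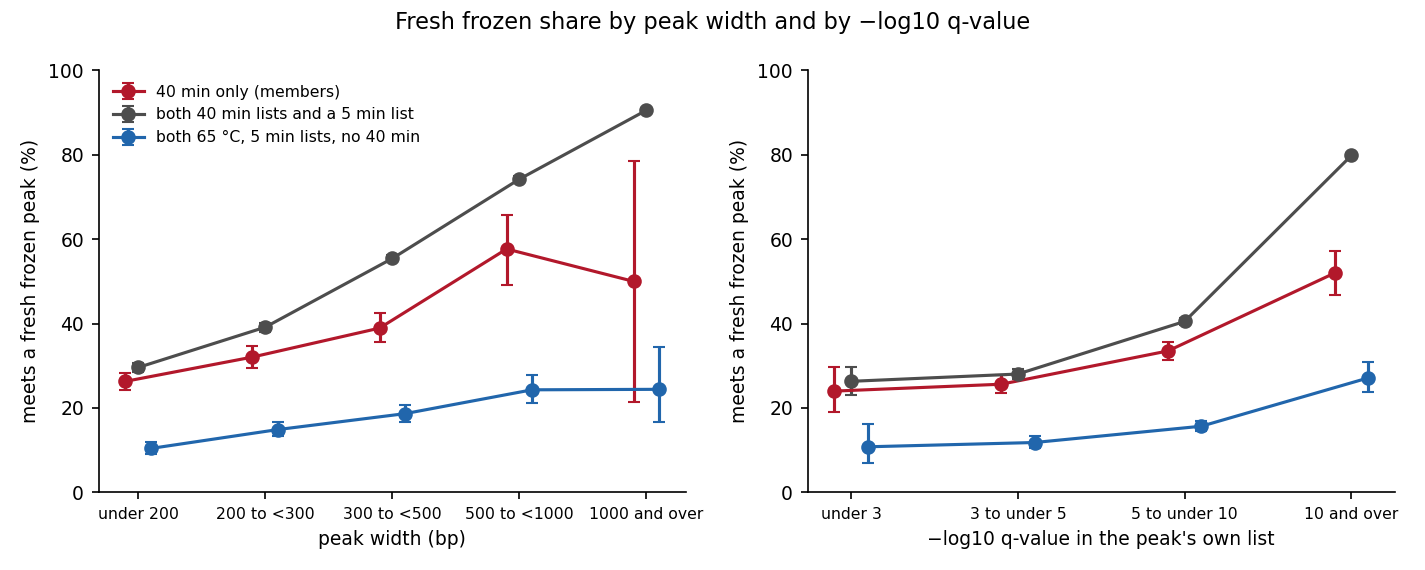
Share of peaks that meet a fresh frozen H3K27Ac peak (y axis, percent, with Wilson 95% intervals) by peak width in bp (left) and by −log10 q-value in the peak's own list (right), for the 4028 peaks seen only after 40 min (red), peaks of both 40 min lists that meet a 5 min peak (grey) and peaks that both 65 °C, 5 min libraries list and neither 40 min list does (blue). Red lies just under grey among narrow peaks, at 26.3% against 29.6% under 200 bp, and above blue in each class, although only 8 red peaks are 1000 bp or wider and their interval is broad.

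The mirror image of the rule gave the opposite set, peaks listed only after 5 min. In the first 65 °C, 5 min library, 40101 peaks met a peak of the second, and 5833 of them (14.5%) met no 40 min peak. Fresh frozen peaks were present at 15.5% (14.6 to 16.5) of these 5833. The share was 16.0 points higher in the peaks seen only after 40 min (14.3 to 17.7), and higher on 19 of 19 chromosomes. The sets they were drawn from had like shares. A fresh frozen peak was met by 57.4% (56.9 to 57.9) of the 40101 peaks and 57.5% (57.1 to 57.9) of the 49920. Each of these sets was already limited to peaks that met a second list. Over whole lists the shares were 44.1% and 46.2% for the 65 °C, 5 min libraries and 49.5% for the 65 °C, 40 min list. The 5 min-only peaks were wider, with a median of 250 bp, and had a similar median −log10 q-value of 5.66. Weighted to the widths of the 40 min-only peaks, their fresh frozen share was 13.9%. The 2 rules are not exact counterparts, because one joins 2 temperatures and excludes 3 lists, and the other joins 2 libraries of 1 condition and excludes 2 lists. The size of the difference depends on whether the 50 °C, 40 min list is in the rules. With that list left out of both rules, 22.3% of 9650 peaks seen only after 40 min and 19.5% of 8854 seen only after 5 min met a fresh frozen peak, a difference of 2.86 points (1.69 to 4.03). The 9650 peaks then had to meet no second list, whereas the 8854 still had to be in both 65 °C, 5 min libraries. The 2.86 points therefore compare sets of unlike stringency. When the 5 min-only peaks were instead required in the first 65 °C and the 50 °C library, 1892 remained and 14.3% (12.8 to 15.9) met a fresh frozen peak.

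H3K4me2 gave another order. An H3K4me2 peak was present at 58 of the 4028 peaks, or 1.44% (1.12 to 1.86), where 12.1% of all 65 °C, 40 min peaks met one. The share was 15.5% (15.2 to 15.9) in 40 min peaks that met a 5 min peak, a difference of -14.1 points (-14.6 to -13.6), lower on 19 of 19 chromosomes. Weighted to the same widths and −log10 q-values the share in the comparison set was 6.99%, so a difference of -5.55 points remained. Among the 5 min-only peaks 4.42% (3.92 to 4.98) met an H3K4me2 peak, and the 40 min-only share differed from it by -2.98 points (-3.63 to -2.33), lower on 19 of 19 chromosomes. The 40 min-only peaks thus met fresh frozen H3K27Ac more often than the 5 min-only peaks, and FFPE H3K4me2 less often. The H3K4me2 values depend on 1 library. Without the first 65 °C, 5 min library in the rule, 2.83% (2.48 to 3.24) of 7412 peaks met an H3K4me2 peak. With the second library joined to the 50 °C, 5 min list in its place, 4% of 1826 5 min-only peaks did, a difference of -1.16 points (-2.22 to -0.26).

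The low H3K4me2 share held for peaks that fresh frozen liver also had. Of the 1272 with a fresh frozen peak, 42 had an H3K4me2 peak, or 3.30% (2.45 to 4.43). The corresponding share was 22.5% (22.0 to 22.9) over all 65 °C, 40 min peaks with a fresh frozen peak. It was 24.6% (24.1 to 25.1) in 40 min peaks that met a 5 min peak and 15.9% (13.6 to 18.4) in 5 min-only peaks. In 65 °C, 40 min peaks that met none of the other 4 FiTAc-seq lists it was 5.77% (4.42 to 7.51). These sets were not matched for size. Median widths were 232 bp in the 1272 peaks and 596 bp in 40 min peaks with a 5 min and a fresh frozen peak. In all, 42 of the 4028 peaks met both lists, 1230 fresh frozen only, 16 H3K4me2 only and 2740 (68.0%) neither. Over all 65 °C, 40 min peaks 11.1% met both and 49.6% neither, and of 40 min peaks with a 5 min peak 39.4% met neither. Of the 65 °C, 40 min peaks that met none of the other 4 FiTAc-seq lists 83.6% met neither, as did 82.5% of 5 min-only peaks. The H3K4me2 list is short, with 11616 peaks on these chromosomes, and a site missing from it may carry the mark below its threshold.

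**Figure D2:**
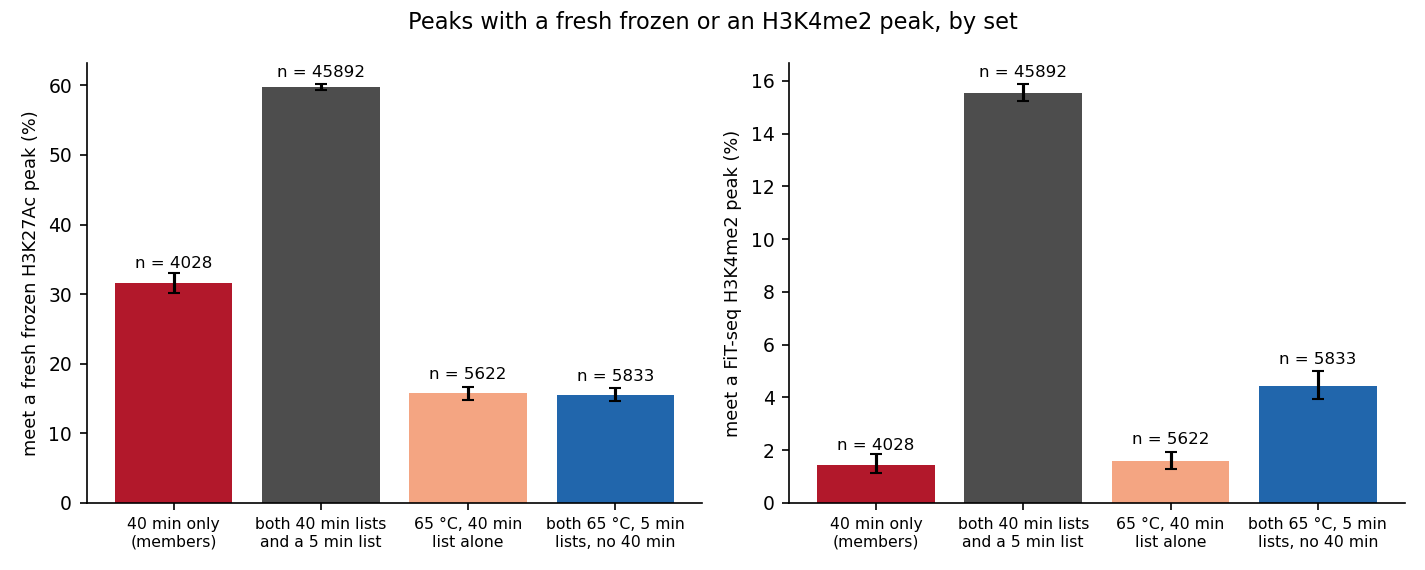
Share of peaks (y axis, percent; bars start at 0 and lines are Wilson 95% intervals) that meet a fresh frozen H3K27Ac peak (left) and a FiT-seq H3K4me2 peak (right) in 4 sets, with the number of peaks above each bar. For fresh frozen peaks the 40 min-only set (31.6%) stands above both the peaks of the 65 °C, 40 min list alone (15.7%) and the 5 min-only set (15.5%), whereas for H3K4me2 the 5 min-only set (4.42%) stands above it (1.44%).

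Presence in the second 40 min list went with a higher fresh frozen share. Another 5622 peaks of the 65 °C, 40 min list met neither a 50 °C, 40 min nor a 5 min peak. Of these, 15.7% (14.8 to 16.7) met a fresh frozen peak, which was 15.9 points less than in the 4028 (14.1 to 17.6), and the 4028 were higher on 19 of 19 chromosomes. The 5622 were narrower and lower, with medians of 168 bp and 4.90 against 208 bp and 5.73, and were not weighted for size. Among peaks under 200 bp the fresh frozen shares were 13.8% (12.8 to 14.9) and 26.3% (24.4 to 28.4). For H3K4me2 the shares over all widths were 1.58% (1.29 to 1.94) and 1.44%, a difference whose interval ran from -0.63 to 0.37 points. No difference in H3K4me2 was resolved with all lists in the rule. Without the first 65 °C, 5 min library the H3K4me2 difference was 0.97 points (0.49 to 1.46), with the peaks at both temperatures higher.

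The fresh frozen share rose with the number of 5 min lists that held the peak, and so did peak size. From 0 to 3 lists the median widths were 208, 232, 334 and 682 bp. Median −log10 q-values were 5.73, 5.97, 8.24 and 18.6, and the shares were not weighted for size. Among peaks of both 40 min lists, fresh frozen peaks were met in 31.6% of those in 0 of the 3 lists, 35.4% (34.1 to 36.6) of the 5698 in 1, 49.3% (48.6 to 50.1) of the 16970 in 2 and 73.4% (72.8 to 74.0) of the 23224 in 3. Those in 1 list came mostly from the replicate pair, with 3384 in the first 65 °C, 5 min library only and 2158 in the second only, and 156 in the 50 °C, 5 min list only. The 65 °C, 5 min libraries are replicates of 1 condition, so such peaks also arose between replicates. Without the first library in the rule, 7412 peaks qualified, and without the second 6186. The count of 4028 therefore depends on each of these libraries, whereas the fresh frozen share was 33.4% and 33.1% without them. The H3K4me2 share was 2.83% (2.48 to 3.24) without the first library and 1.75% (1.45 to 2.10) without the second. Without the 50 °C, 40 min list, 9650 peaks qualified and 22.3% met a fresh frozen peak.

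Most of the peaks lay close to a 5 min peak. The median distance between edges was 371 bp, with quartiles of 128 and 2798 bp. A 5 min peak lay within 100 bp of 836 (20.8%), within 500 bp of 2287 (56.8%) and within 5000 bp of 3228 (80.1%). The nearest was usually at 65 °C, since median distances were 596 and 839.5 bp to the first and second 65 °C, 5 min library and 8643 bp to the shorter 50 °C, 5 min list. The 5 min-only peaks lay somewhat farther from 40 min peaks, at a median of 453 bp with 52.0% within 500 bp. The median of 371 bp depends on how peaks are split and how overlap is counted. It was 158 bp when an overlap had to cover 50% of the shorter peak, and 1974 bp for the 1854 peaks left when peaks of each list were merged within 500 bp. A 5 min peak within 1000 bp was found on both sides of 808 of the 4028 peaks, on 1 side of 1873 and on neither side of 1347. Fresh frozen peaks were met by 16.8% (14.4 to 19.6), 27.4% (25.5 to 29.5) and 46.2% (43.5 to 48.8) of these. The 1347 comprise 547 peaks at over 1000 to 5000 bp, with a share of 25.2%, and 800 at over 5000 bp, with 60.5%. The higher share on neither side thus came from the peaks over 5000 bp away.

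**Figure D3:**
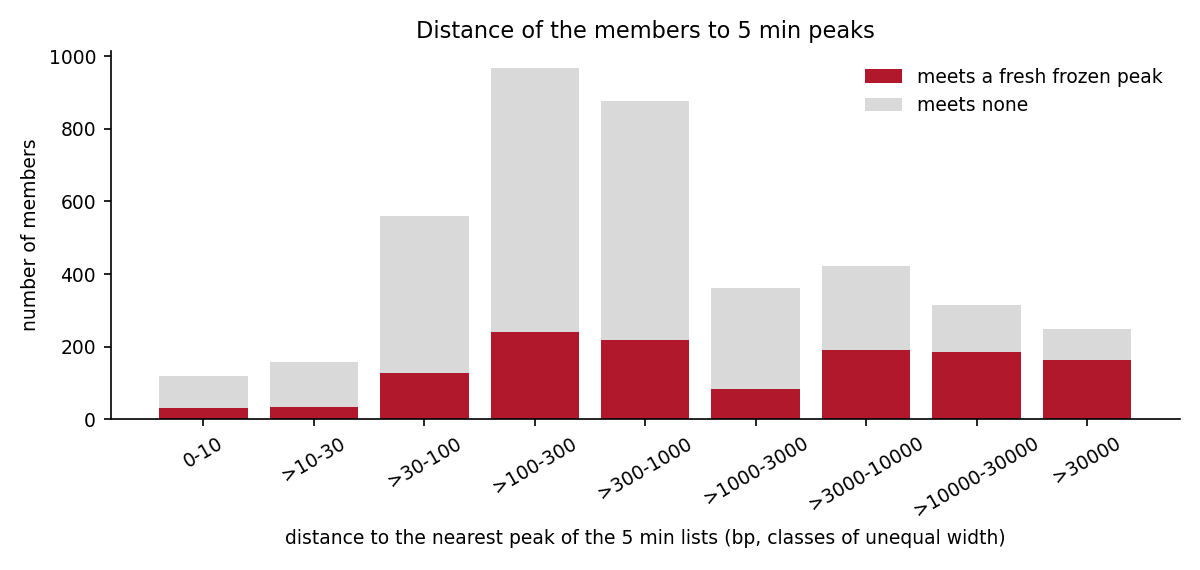
Number of 40 min-only peaks (y axis) by distance in bp to the nearest peak of the 3 lists of 5 min (x axis, classes of unequal width), split into those that meet a fresh frozen peak (red) and those that do not (grey). The tallest bars lie between 100 and 1000 bp, where red is the smaller part, and in the last class, over 30000 bp, red makes up 163 of 248.

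Peaks on either side of the edge of the rule were alike in width, and the median −log10 q-value was lower inside. Within 20 bp of a 5 min peak but not overlapping it lay 194 of the 4028, with medians of 188.5 bp in width and 4.90 in −log10 q-value and a fresh frozen share of 22.2%. Just outside the rule, 237 peaks of both 40 min lists overlapped 5 min peaks by 20 bp at most, with a median width of 197 bp, a median of 5.73 and a share of 24.5%.

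Peaks far from 5 min peaks met fresh frozen peaks more often. Over 5000 bp from every 5 min peak lay 800 (19.9%), and 484 of them met a fresh frozen peak, or 60.5% (57.1 to 63.8). Of the 3228 within 5000 bp, 24.4% (23.0 to 25.9) did. The difference of 36.1 points (32.3 to 39.7) had the same sign on 19 of 19 chromosomes. The far and near peaks were alike in size, with median widths of 216 and 206 bp and median −log10 q-values of 5.97 and 5.73. Among peaks under 200 bp the shares were 55.8% (50.5 to 61.0) over 5000 bp and 20.3% (18.1 to 22.8) within 500 bp. Up to 5000 bp there was no steady trend, with shares of 22.8%, 26.2%, 20.1% and 25.2% in the classes up to 100, 500, 1000 and 5000 bp.

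**Figure D4:**
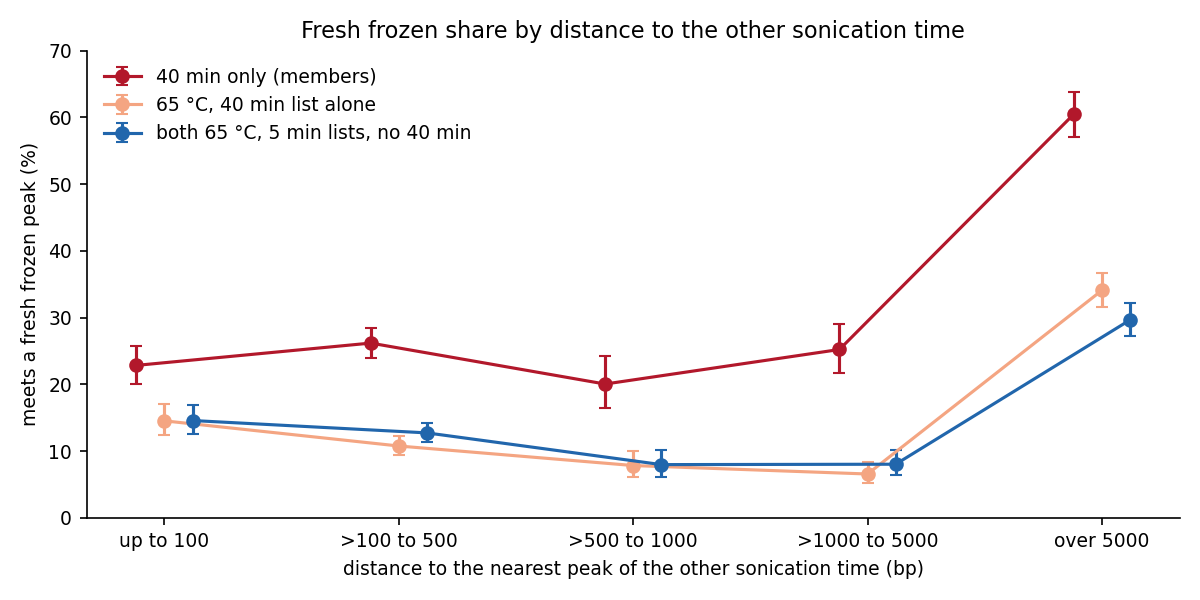
Share of peaks that meet a fresh frozen H3K27Ac peak (y axis, percent, Wilson 95% intervals) by distance in bp to the nearest peak of the other sonication time (x axis), for 40 min-only peaks (red), peaks of the 65 °C, 40 min list alone (orange) and 5 min-only peaks (blue). All 3 sets are highest over 5000 bp, where red reaches 60.5%, orange 34.1% and blue 29.7%.

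A higher share among distant peaks was seen in every set compared. Over 5000 bp from the other sonication time, 34.1% (31.6 to 36.7) of the peaks of the 65 °C, 40 min list alone and 29.7% (27.2 to 32.2) of the 5 min-only peaks met a fresh frozen peak. The distant 40 min-only peaks exceeded these by 26.4 points (22.1 to 30.6) and 30.8 points (26.6 to 35), each on 19 of 19 chromosomes. With the 50 °C, 40 min list left out of both rules, the second of these was 5.98 points (2.98 to 8.96). The 40 min-only peaks then had to meet no second list, whereas the 5 min-only peaks still did. Isolation within the 65 °C, 40 min list itself went the same way. Of peaks under 300 bp that also met a 5 min peak, 76.9% (74.4 to 79.3) of those over 5000 bp from any other peak of the list met a fresh frozen peak, and 31.3% (30.5 to 32.1) of the rest. In the 40 min-only peaks of that width the shares were 56.1% (51.6 to 60.5) and 23.8% (22.2 to 25.5). For H3K4me2 the distant 5 min-only peaks reached 10.7% (9.14 to 12.5) and the distant 40 min-only peaks 2.88% (1.92 to 4.28).

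Peaks without a fresh frozen peak mostly had one nearby. Of the 2756, 2148 (77.9%) had one within 5000 bp, below the 84.1% of all 65 °C, 40 min peaks without a fresh frozen peak, and the median distance over all 2756 was 1524 bp. In 40 min peaks with a 5 min peak and no fresh frozen peak, 88.9% lay within 5000 bp. The 316 distant peaks without a fresh frozen peak were farther from one, at a median of 8736 bp, with 116 of them within 5000 bp.

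Seen from fresh frozen liver, the 4028 peaks met 1249 of its 47238 peaks on these chromosomes, or 2.64%. Of these, 198 also met a 5 min peak elsewhere along their length, and 1051 met none. Fresh frozen peaks with no 5 min peak numbered 10567, or 22.4%, so 9.95% (9.39 to 10.5) of them were met by a 40 min-only peak. Another 7685 had no peak in either 40 min list. The 1051 were intermediate in size, with medians of 298 bp in width and 8.01 in fresh frozen −log10 q-value. The 7685 had medians of 219 bp and 5.74, and the 36671 fresh frozen peaks with a 5 min peak 398 bp and 12. Few of the strongest fresh frozen sites were among them, since 16 of the 1272 peaks (1.26%) met one of the 5000 highest fresh frozen peaks, against 18.6% of the 40 min peaks that met both a 5 min and a fresh frozen peak. H3K4me2 was found at 30 of the 1051 (2.85%), at 5.02% of the 7685 and at 19.6% of the 36671.

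The individual sites below follow a rule based on the −log10 q-value in the 65 °C, 40 min list, and all positions are on mm9. Gene annotation of that build was not used here, so sites carry no gene names. The highest was a 3629 bp peak at chr6:141892415-141896043, with a −log10 q-value of 60.2 at 65 °C and 53.2 at 50 °C, where it ranked 1901 and 2502. The nearest 5 min peaks were 12063 bp away at 50 °C and 11898 and 12087 bp away in the 65 °C pair. Fresh frozen liver had a peak there of 12.3, ranked 19165, and the nearest H3K4me2 peak was 398418 bp away. A broad site that stood among the upper peaks of both 40 min lists was thus absent from all 3 lists of 5 min, although fresh frozen liver had a peak within it. The size of a −log10 q-value cannot be compared between libraries, and values of several lists are given side by side to describe a site. An adjacent peak of 620 bp, chr6:141896430-141897049, also qualified, with −log10 q-values of 17.2 and 19.3 and with the nearest fresh frozen peak 697 bp away.

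The next was a 2350 bp peak at chr7:16953898-16956247, with −log10 q-values of 41.5 at 65 °C and 64.2 at 50 °C. It lay 1080 bp from a 50 °C, 5 min peak and 1474 and 1525 bp from peaks of the 65 °C pair, and 1615 bp from the nearest fresh frozen peak. At chr5:117534911-117536606, a 1696 bp peak had values of 29.6 and 23.1, with every 5 min peak at least 28002 bp away, fresh frozen peaks 28842 bp and H3K4me2 peaks 28295 bp away. These 2 sites were the only ones of the 8 highest without a fresh frozen peak. The chromosome 5 site was also the highest of the distant peaks with neither mark.

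The other 5 of the 8 highest each met a fresh frozen peak and had no H3K4me2 peak. A 1073 bp peak at chr10:118187126-118188198 had values of 25.9 and 21.2 in the 40 min lists and 12.3 in fresh frozen liver, and lay 373 and 166 bp from peaks of the 65 °C, 5 min pair. At chr4:106979237-106979796 the values were 24.4 and 21.2, with 5.79 in fresh frozen liver and 5 min peaks at 1916 bp or more. At chr2:69224613-69225388 they were 22.9 and 13.8, with 5.60 in fresh frozen liver and a 5 min peak at 477 bp. The fresh frozen values at these 3 sites ranked 19157, 36158 and 37485. At chr15:54703696-54704822 the values were 22.9 and 13.8, with 9.36 in fresh frozen liver and a 5 min peak at 2361 bp. The last, chr1:182139784-182140117, had 22.3 and 9.96, with 9.91 in fresh frozen liver, and lay 9 bp from a peak of the first 65 °C, 5 min library and 505 bp from one of the second. It therefore sat at the border of the rule.

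Of the 42 peaks with both a fresh frozen and an H3K4me2 peak, 21 lay over 5000 bp from every 5 min peak. The 4 highest of the 42 were all among these distant peaks. They lay at chr6:127280458-127280816, chr7:88027751-88028082, chr2:69243446-69243886 and chr17:50697112-50697456, with widths of 332 to 441 bp. The nearest 5 min peaks were 10742, 6422, 9047 and 12172 bp away. At the chromosome 17 site the −log10 q-values were 10.7 at 65 °C, 15 at 50 °C, 16.5 in fresh frozen liver and 4.57 for H3K4me2. At the chromosome 6 site they were 11.5, 8.90, 14.5 and 5.90. In the same order they were 11.5, 9.96, 7.83 and 6.15 at the chromosome 7 site and 10.7, 9.28, 5.74 and 3.39 at the chromosome 2 site. Their best rank in either 40 min list was 18102, and in the fresh frozen list 14083, both at the chromosome 17 site. In descending order, the 4 highest distant peaks with neither mark were the chromosome 5 site above, chr10:118158845-118159277, chr6:141896430-141897049 and chr13:104381755-104382141. The chromosome 10 site had values of 19.9 and 13.3, and the chromosome 13 site 16.0 and 16.6. The latter lay 181278 bp from the nearest 5 min peak but 1939 bp from a fresh frozen peak.

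Some of the 4028 peaks lay together. Joined at gaps of up to 12.5 kb, they formed 2882 stretches, of which 2184 held a single peak. The 43 stretches of 5 or more held 283 peaks. The largest number was 11, reached on chromosomes 7, 15 and 18. At chr7:15102890-15121812, a stretch of 18.9 kb, the 40 min lists held 20 peaks at 65 °C and 21 at 50 °C, with highest −log10 q-values of 55.0 and 54.6. The lists of 5 min held 1 peak at 50 °C, of 3.89, and 7 and 11 at 65 °C, the highest of 12.5 and 13.3. Fresh frozen liver had 6 peaks there, up to 35, of which 1 met a 40 min-only peak. The 5 min libraries at 65 °C thus also listed peaks within this stretch. Its 40 min-only peaks lay 85 to 5559 bp from the nearest 5 min peak.

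At chr15:3399223-3422038, over 22.8 kb, the 40 min lists held 23 and 21 peaks, the 50 °C, 5 min list 4 and the 65 °C pair 4 and 6. Fresh frozen liver held 7, and 4 of the 11 peaks seen only after 40 min met one. At chr18:21079542-21105266, over 25.7 kb, the 65 °C and 50 °C lists of 40 min held 18 and 23 peaks, the 50 °C, 5 min list 1, the 65 °C, 5 min libraries 5 and 6, and fresh frozen liver 7, and 3 of the 11 met a fresh frozen peak. The H3K4me2 list held 0 peaks in all 3 stretches.

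**Figure D5:**
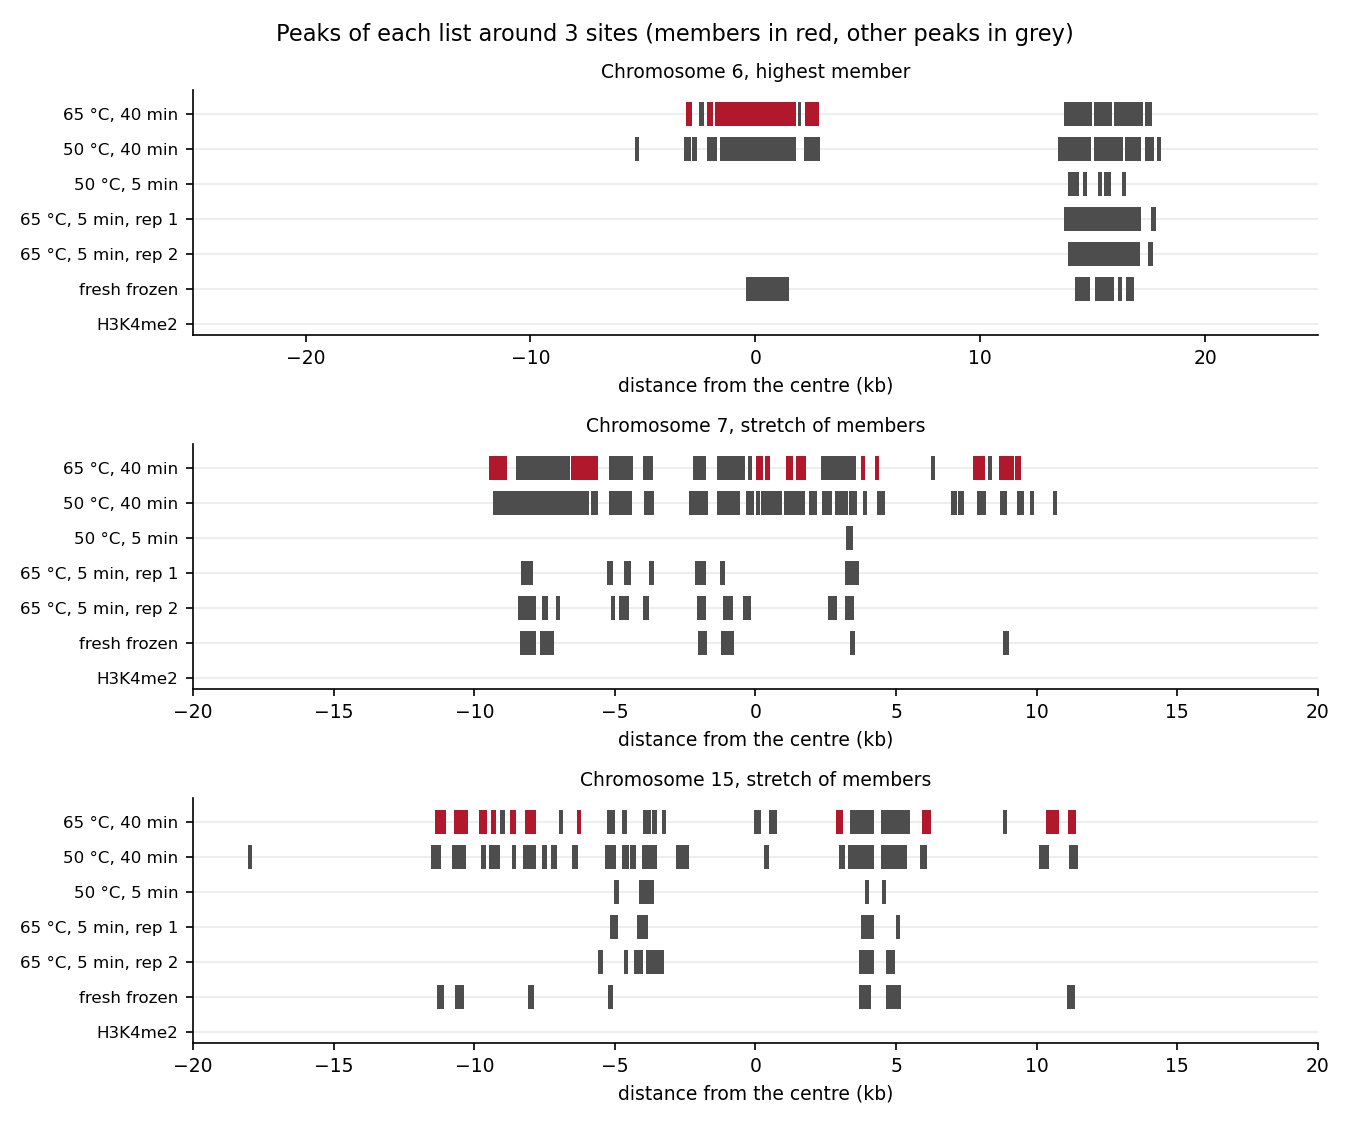
Peaks of 7 lists (rows) by distance in kb from the centre (x axis) of the highest 40 min-only peak on chromosome 6 (top), and of the stretches of 11 such peaks on chromosomes 7 (middle) and 15 (bottom), with 40 min-only peaks of the 65 °C list in red and all other peaks in grey. In the top panel the 5 min lists are empty around the centre and have peaks more than 11 kb to the right. In the lower panels 5 min peaks lie between some of the red ones, and other red ones lie beyond the outermost 5 min peaks.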

How the data were processed

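The series holds 10 samples, of which 9 have a peak list and 1, an FFPE input, was not analysed here. The submitters' processing notes name BWA, MACS2 and mm9. The calling thresholds, any control library and tool versions are not given in the sources used here. The authors deposited 1 list per library, so peaks were not called on pooled samples. Each deposited list gives a position and a value per peak, read as the −log10 of the q-value because the long lists start just above 2. It is the authors' own score, depends on depth, and was used only to describe, rank and filter peaks. Starts are printed 1-based.

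Peaks on chromosomes 1 to 19 were kept. The rule and the comparison sets were chosen with earlier results of these data known. Shares carry Wilson 95% intervals and differences Newcombe 95% intervals, which cover counting error only, and no p-value was computed. Sites named are the 8 highest, the 4 highest with both marks, the 4 highest with neither and over 5000 bp from 5 min peaks, and the 3 stretches with most peaks. The checks under other settings of distant peaks, 5 min-only peaks and peaks of the 65 °C, 40 min list alone, and the weighting by size, were chosen after seeing the data. Gene lists were not run, since gene positions on mm9 were not used here. Interval steps were tested on simulated data. Software was pandas 2.3.3, numpy 2.4.6, scipy 1.17.1 and, for plots, matplotlib 3.10.9, under Python 3.11.15.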

Additional observations from a re-analysis of the deposited data

How the results depend on the processing

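The small H3K4me2 difference from peaks of the 65 °C, 40 min list alone changed sign, to 0.19 points with peaks merged within 500 bp and 0.97 without the first 65 °C, 5 min library. The other differences rerun kept their sign. They were fresh frozen and H3K4me2 against 40 min peaks with a 5 min peak and against 5 min-only peaks, fresh frozen against the 65 °C, 40 min list alone, and fresh frozen of distant peaks against near ones and both distant sets. With an overlap of at least 50% of the shorter peak, the median distance to 5 min peaks was 158 bp, 28.3% of the peaks met a fresh frozen peak, and the differences from 40 min peaks with a 5 min peak were -32.8 points for fresh frozen and -13.2 for H3K4me2. With peaks merged within 500 bp in every list, 1854 peaks remained, at a median of 1974 bp, with shares of 40.9% and 2.00% and differences of -39.5 and -25.9 points. Under these 2 settings the H3K4me2 difference from 5 min-only peaks was -2.03 and -5.06. Merging also gave fresh frozen differences of 22.8 from the 65 °C, 40 min list alone and 26.5 between distant 40 min-only and 5 min-only peaks. Closing gaps of up to 76 bp gave a median of 407 bp and differences of -30.5 and -15.7. A −log10 q-value of at least 5 in every list gave 532 bp, shares of 34.7% and 1.09%, an H3K4me2 difference of -10.3 and a fresh frozen difference from 5 min-only peaks of 18.3. Applied to the 40 min lists alone it gave 1895 peaks, 37.2%, -16.3 and 19.1. With 5 min peaks widened by 500 bp, 1745 peaks remained, at 4011 bp and 40.3%, with differences of -17.8 and -13.3, and 21.2 from the 65 °C, 40 min list alone; 5 min-only peaks were not rerun there. With 50 °C, 40 min peaks as the unit, distant peaks differed from distant peaks of that list alone by 21.6. Weighting by width and −log10 q-value gave -4.20 and -5.55.

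Leaving out 1 list at a time gave counts from 4184 to 9650, fresh frozen shares from 22.3% to 33.4%, H3K4me2 shares from 1.39% to 2.83% and median distances from 365.5 to 471 bp. The differences ranged from -32.0 to -27.9 points for fresh frozen, from -14.5 to -12.4 for H3K4me2, and from 27.8 to 38.9 for distant against near peaks. Against 5 min-only peaks they ranged from 2.86 (without the 50 °C, 40 min list) to 19.1 for fresh frozen, from -3.12 to -1.16 (without the first 65 °C, 5 min library) for H3K4me2, and from 5.98 to 38.0 for distant peaks. Without the 50 °C, 40 min list, 40 min-only peaks had to meet no second list, whereas 5 min-only peaks still did. Against the 65 °C, 40 min list alone they ranged from 15.8 to 16.7 for fresh frozen, -0.21 to 0.97 for H3K4me2 and 26.8 to 29.4 for distant peaks, with the 50 °C, 40 min list kept. Reruns of differences other than those from 40 min peaks with a 5 min peak, and the weightings, were chosen after seeing the data. No paired analysis was possible because only the 65 °C, 5 min group has a second replicate number. Depth is unknown, so an absent peak may be a signal below threshold.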

Other observations

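The 40 min-only peaks were spread over all 19 chromosomes, at 5.50% to 7.98% of the 65 °C, 40 min peaks of a chromosome. None of the 4028 met a peak of the FiT-seq H3K27Ac list (112 peaks on these chromosomes) or of the 80 °C, 40 min list (55 peaks). Over all 63188 peaks of the 65 °C, 40 min list, 42 met the former and 53 the latter, so few would be counted in any 4028 of them. Of the 5622 peaks in the 65 °C, 40 min list alone, 8 and 4 did. Of the 5833 peaks seen only after 5 min, 15 met the former and 1 the latter, and of the 45892 peaks of both 40 min lists with a 5 min peak, 5 and 45 did.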
